A study of Mus musculus with 20 samples.

Results

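Ribosome footprints were compared between starved mouse embryonic fibroblasts given Thiamet-G and starved control fibroblasts. The comparison comprised 4 of the 20 libraries of the series, chosen by their titles as the 2 starved Thiamet-G and the 2 starved control Ribo-seq libraries. The whole series holds 12 Ribo-seq libraries and 8 libraries of 80S ribosomes associated with the initiation factor eIF3 (eIF3-80S-seq). Embryonic fibroblasts are connective tissue cells cultured from embryos, and all cells here were of strain C57BL/6J. Both groups were starved of amino acids for 2 h in DMEM with a serum that the labels abbreviate as DFBS, and neither received the 4-OHT that was used elsewhere in the series to knock out Ogt. The Thiamet-G group was given 0.1 µM Thiamet-G for 16 h. The labels name no vehicle for the control group and do not say whether Thiamet-G stayed in the starvation medium. Nothing in the labels says that replicates were separate cultures, so the p-values below measure the spread between libraries, which may be technical.

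O-GlcNAc is a single sugar that O-GlcNAc transferase attaches to serines and threonines of nuclear and cytoplasmic proteins and that O-GlcNAcase removes. Thiamet-G is an inhibitor of O-GlcNAcase, so treated cells keep more of the modification. Amino acid shortage activates the kinase GCN2, which phosphorylates the initiation factor eIF2, lowers general initiation and lets a few mRNAs with short upstream reading frames be translated better, a program called the integrated stress response. In the title of the series O-GlcNAc sits on eIF3a, a subunit of eIF3, and is tied to reinitiation in that response. The comparison asks how footprints were distributed over coding regions when starvation followed a block of O-GlcNAc removal.

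Values are RPKM, the reads on a transcript per kilobase of its counted length, scaled to the size of its library, and are thus relative to each library. Levels of single transcripts are given after rescaling between the 12 Ribo-seq libraries by factors of 0.929 to 1.18. Fewer cells and less RNA per cell cannot be told apart in such values. The files give Ensembl transcript identifiers, and 0 of them could be matched to a gene symbol here. The transcripts are therefore described by identifier, coding length and level, and neither fibroblast markers nor the enzymes of O-GlcNAc could be looked up as a check on the labels. Whole reads were recovered from the steps of the RPKM values. Starved control replicates 1 and 2 held 5846130 and 1505367 reads, and starved Thiamet-G replicates 1 and 2 held 869064 and 958140 reads. The 10 most read transcripts took 4.23% to 7.06% of the reads of a library. The replicate number in the file names, which is the reverse of the title number for the starved Thiamet-G libraries, paired the libraries. The first pair is Thiamet-G replicate 2 with control replicate 1, and the second pair is Thiamet-G replicate 1 with control replicate 2. Across 8373 transcripts listed in all 12 Ribo-seq files, log2 levels correlated at 0.91 in the first pair and 0.86 in the second, against 0.83 between the control replicates and 0.84 between the Thiamet-G replicates. Libraries of unlike treatment and like number were thus closer to each other than replicates of one treatment. Of the combinations unlike in both, control replicate 1 with Thiamet-G replicate 1 correlated at 0.81 and control replicate 2 with Thiamet-G replicate 2 at 0.87.

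No transcript passed the test between starved Thiamet-G and starved control cells. In limma's fit of all 12 Ribo-seq libraries, 0 of 10936 transcripts passed a Benjamini-Hochberg adjusted p of 0.05 (0%), and the smallest adjusted p was 1. At an unadjusted p under 0.05, 112 transcripts were higher and 204 were lower in Thiamet-G cells, together 316 or 2.89% of those tested. With the file-name number as a replicate block, limma again called 0 transcripts (0%), and 592 (5.41%) had an unadjusted p under 0.05. Limma-voom on the recovered reads called 0 of 9914 transcripts without the block and 0 with it (smallest adjusted p 0.0745). Its counts at an unadjusted p under 0.05 were 96 higher and 20 lower without the block (1.17% of those tested). With the block they were 256 higher and 185 lower (4.45%). Without any difference a fraction of about 0.05 would have such a p. The limma fit without the block had more lower transcripts and limma-voom more higher ones, so these counts give no common direction. Limma on the 8360 tested transcripts listed in every Ribo-seq file had 112 higher and 105 lower at that p. With 0.1 in place of 1 RPKM added before the log, limma had 106 higher and 259 lower. The part of unlisted values, counted as 0, in the balance of higher and lower transcripts was not tested. Without control replicate 1 the count at an unadjusted p under 0.05 was 533, and without Thiamet-G replicate 2 it was 856. Both of these libraries belong to the first pair.

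The fit limited what could be seen. The median 95% confidence interval of a log2 difference extended 1.92 to either side, a factor of 3.78. For 3117 transcripts (28.5%) the interval lay within 4-fold in either direction, and for 5 it lay within 2-fold. Among 1782 transcripts of 100 to 1000 RPKM the median half-width was a factor of 2.44, and 70.4% of the intervals lay within 4-fold. These intervals are not adjusted for the number of transcripts tested, so their widths are no limit of detection for the adjusted p. Log2 differences of 3.10 for ENSMUST00000168185 and -3.09 for ENSMUST00000048678, described below, were not called. That no transcript was called does not show that differences are absent. The block narrowed the median half-width to a factor of 3.21 and brought 38.3% of the intervals within 4-fold.

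A fit of the 4 starved libraries alone with the replicate block had 1 residual degree of freedom and was the one fit with calls. It called 12 transcripts higher and 7 lower of 10879 tested (0.175%) by limma's adjusted p. The 12 had mean levels of 45.1 to 2525 RPKM, and 9 of them were listed in all 4 starved files. The 7 had mean levels of 12.7 to 364 RPKM, and 1 of them was listed in all 4. None of the 19 was called in the fit of 12 libraries with the same block.

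The ratios of Thiamet-G to control in the 2 pairs had almost no relation to each other. Over 7015 transcripts listed in all 4 files with a mean of at least 10 RPKM, the log2 ratios of the first and second pair correlated at 0.014 across transcripts, and 50.8% had one sign in both. The median absolute log2 ratio was 0.59 in the first pair and 0.65 in the second. It was 0.81 between the control replicates and 0.76 between the Thiamet-G replicates, so a treated and an untreated library of one number differed less than replicates did. Counting error accounted for a median SD of 0.20 and 0.27 on the log2 scale in the 2 pairs, less than the ratios themselves. Transcripts in a library share its depth and composition, and these correlations are descriptions.

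**Figure D1:**
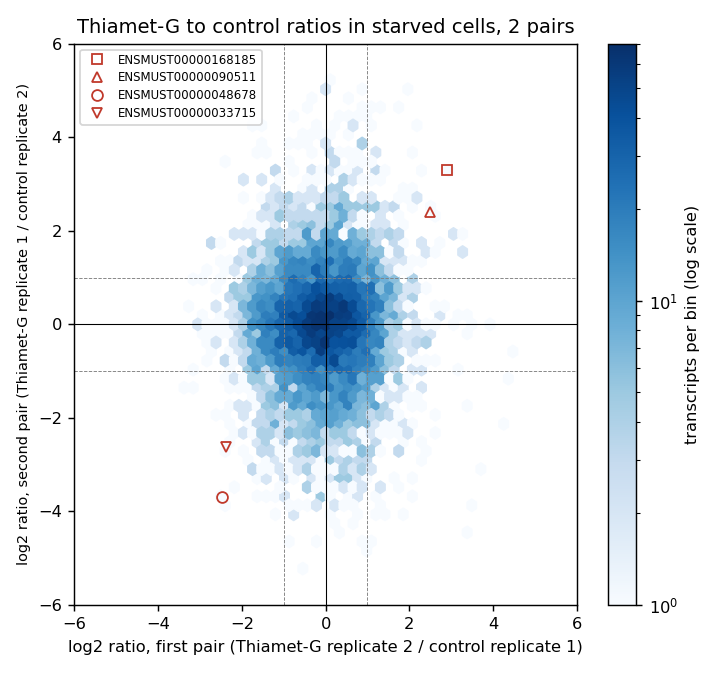
Log2 ratios of starved Thiamet-G to starved control in the first pair (horizontal) and second pair (vertical) for 7015 transcripts, as counts per bin, with dashed lines at 2-fold and 4 named transcripts as red symbols. The cloud has no slope (r = 0.014), and the named transcripts lie in the corners where both pairs point one way.

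The relation between the pairs differed with level. Among 5037 transcripts of 10 to 100 RPKM the ratios correlated at 0.0069 with 50.3% of one sign, and among 1771 of 100 to 1000 RPKM at 0.035 with 50.6%. Among the 207 transcripts of at least 1000 RPKM they correlated at 0.24 with 64.3% of one sign. In this most read class 69.1% of the fitted log2 differences were above 0, and the median log2 ratios of the pairs were 0.23 and 0.19. Over all 10936 transcripts 46.3% were above 0 and the median difference was -0.06. Ratios in the second pair were smallest in the most read class, with a median absolute log2 ratio of 0.29, where the replicates of control cells still differed by 0.75.

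**Figure D2:**
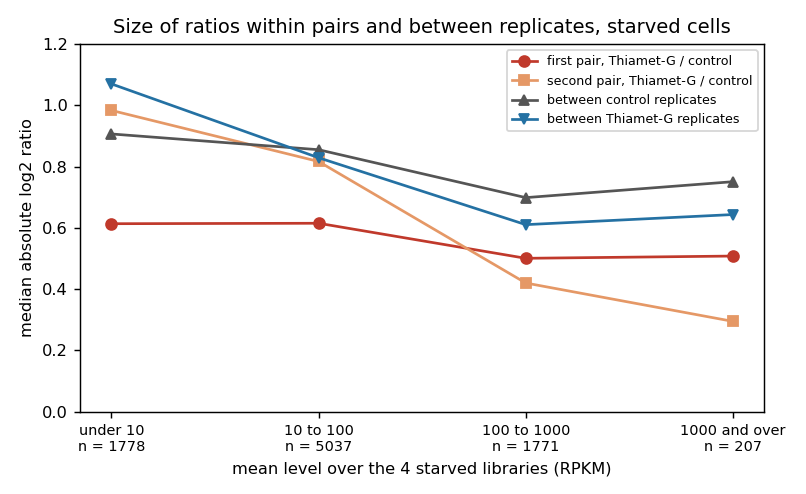
Median absolute log2 ratio in 4 classes of mean level over the starved libraries (RPKM), for the first and second Thiamet-G to control pair and between replicates of one treatment. At 100 RPKM and over both pairs lie below both replicate comparisons, and the second pair falls to 0.29 in the most read class.

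The 100 most read transcripts had means of 1704 to 14969 RPKM in the starved libraries. Their log2 differences ranged from -1.03 to 1.95 with a median of 0.29, and 71 were above 0. Of the 100, 65 had one sign in both pairs, against 50.8% of the 7015 transcripts above. Groups did not overlap for 21 of the 100, no more than over all transcripts tested (11.6% higher and 14.3% lower), and 1 was 2-fold apart in both pairs. By limma 0 of the 100 was called, and 1 had an unadjusted p under 0.05. Short coding regions made up most of the class, since 83 of the 100 had at most 600 nt. Among the 10 most read, all of at most 600 nt, 7 were above 0 with a median of 0.25 and a median SE of 0.98.

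Groups that did not overlap were seen in both directions. Both Thiamet-G libraries lay above both control libraries for 1268 of 10936 transcripts (11.6%), and below both for 1563 (14.3%). A 2-fold difference of one sign in both pairs was seen for 151 of the 7015 transcripts above 10 RPKM (2.15%) in the higher direction and for 178 (2.54%) in the lower. Of the 151, 50 had an unadjusted p under 0.05 by limma, and of the 178, 62 did, against 168 of all 7015, with 0 called. Both sets were chosen for their ratios in these libraries, so a higher share of small p-values follows from the choice. Among the 151 higher transcripts 38 (25.2%) had a coding region no longer than 600 nt. Among the 178 lower ones 7 (3.93%) did, and among all 7015 the share was 16.6%. The median coding lengths were 1128 nt for the higher set and 1606.5 nt for the lower, against 1200 nt for all 7015.

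The same sets were looked up in fed cells, whose 4 libraries do not enter the starved comparison. The median log2 difference of Thiamet-G to control in fed cells was 0.03 for the higher set and -0.19 for the lower, against -0.04 for all 7015 transcripts. Both fed pairs were above 0 for 25 of the 151 (16.6%), against 19.7% of the 7015. Both fed pairs were below 0 for 68 of the 178 (38.2%), against 27.1% of the 7015. The fed difference was above 0 for 77 of the 151 (51.0%) and for 75 of the 178 (42.1%), against 47.1% of the 7015. Both fed pairs thus shared the starved direction more often in the lower set than among all 7015, and less often in the higher set. These shares were not tested.

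The 10 transcripts per direction with the largest smaller ratio of the 2 pairs were ranked, and 2 in each direction are named. The 10 higher ones were 4.24-fold to 7.44-fold apart in their smaller pair on the log2(RPKM + 1) scale, at mean levels of 14.7 to 235 RPKM. The 10 lower ones were 3.92-fold to 5.55-fold apart, at 14.6 to 65.6 RPKM. All 20 had an adjusted p of 1 by limma and of 0.758 to 0.87 with the replicate block. In fed cells 5 of the 10 higher and 5 of the 10 lower transcripts had a difference above 0.

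ENSMUST00000168185, whose coding region spans 4092 nt, had the largest smaller ratio in the higher direction. It stood at 7.70 and 0.31 RPKM in starved control replicates 1 and 2, and at 11.9 and 63.7 RPKM in starved Thiamet-G replicates 1 and 2. The groups did not overlap, and the libraries of file-name number 1 were higher than those of number 2 in both. The value of 0.31 RPKM rests on 2 reads, so the second pair's ratio of 38.3 had a 95% counting interval of 9.95 to 327. In the first pair the ratio was 8.28 with an interval of 6.88 to 9.98. The log2 difference was 3.10 with an SE of 1.43 (limma adjusted p 1). Fed control cells stood at 11.3 and 0.885 RPKM and fed Thiamet-G cells at 13.8 and 0.915 RPKM, again split by number, with a log2 difference of 0.15 (SE 1.43). The difference between the starved and fed effects was 2.95 with an SE of 2.03 (limma adjusted p 1).

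ENSMUST00000090511, of 2337 nt, was split by number the other way. It stood at 6.39 and 74.7 RPKM in starved control replicates 1 and 2, and at 402 and 40.6 RPKM in starved Thiamet-G replicates 1 and 2. The groups overlapped, since control replicate 2 lay above Thiamet-G replicate 2, while within the pairs the ratios were 6.35 and 5.38. The counting intervals of these ratios were 4.76 to 8.50 and 4.68 to 6.19. The log2 difference was 2.45 with an SE of 1.88, and of 0.64 with the replicate block (limma adjusted p 1 and 0.758). In fed cells the levels were 1.92 and 28.9 RPKM in control and 2.28 and 45.3 RPKM in Thiamet-G libraries, with a log2 difference of 0.40 (SE 1.88).

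ENSMUST00000048678, of 2202 nt, had the largest smaller ratio in the lower direction. It stood at 49.3 and 19.0 RPKM in starved control replicates 1 and 2, and at 0.539 and 8.06 RPKM in starved Thiamet-G replicates 1 and 2. Both treated libraries lay below both control libraries, and Thiamet-G replicate 1 held 1 read. The ratio of Thiamet-G to control was 0.164 in the first pair with a counting interval of 0.0992 to 0.255, and 0.0283 in the second with an interval of 0.000707 to 0.163. The log2 difference was -3.09 with an SE of 1.12 (limma adjusted p 1). In fed cells the levels were 8.31 and 12.6 RPKM in control libraries and 5.91 RPKM in Thiamet-G replicate 1, with no entry in replicate 2. The fed log2 difference of -2.10 (SE 1.12) counts that missing entry as 0.

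ENSMUST00000033715, of 1089 nt, stood at 107 and 18.7 RPKM in starved control replicates 1 and 2. It stood at 2.18 and 19.6 RPKM in starved Thiamet-G replicates 1 and 2, the lower of these from 2 reads. The groups overlapped, since Thiamet-G replicate 2 lay just above control replicate 2. Within the pairs the ratios were 0.183 with a counting interval of 0.117 to 0.275, and 0.117 with an interval of 0.0136 to 0.458. The log2 difference was -2.51 with an SE of 1.18 (limma adjusted p 1). Fed levels were 18.0 and 8.47 RPKM in control and 10.9 and 15.2 RPKM in Thiamet-G libraries, a log2 difference of 0.05 (SE 1.18).

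**Figure D3:**
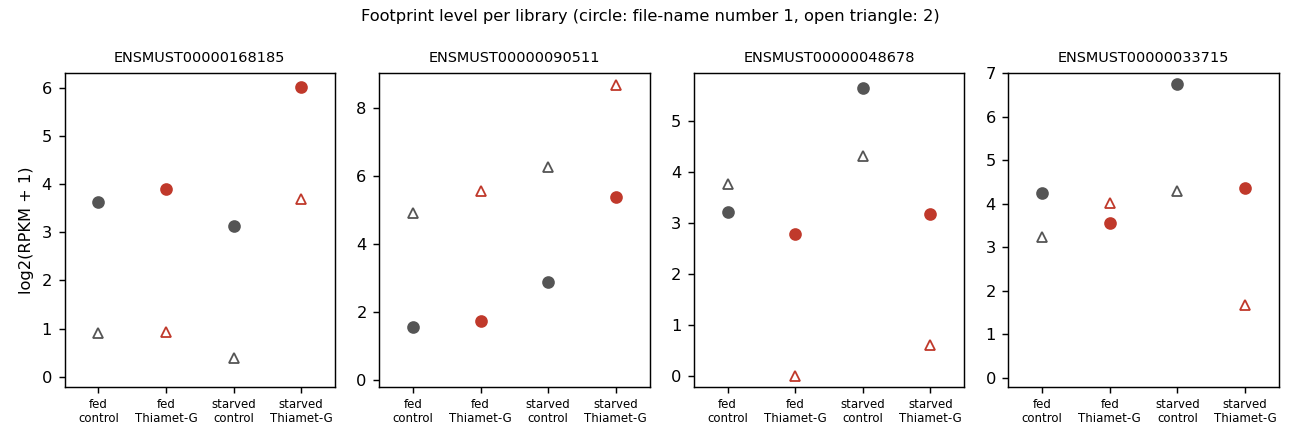
Level of 4 transcripts as log2(RPKM + 1) in 8 Ribo-seq libraries, control in grey and Thiamet-G in red, with file-name number 1 as filled circles and number 2 as open triangles. In starved cells each symbol moves the same way from control to Thiamet-G, and for ENSMUST00000168185 and ENSMUST00000090511 the 2 numbers also stand apart within every group.

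Transcripts listed in both libraries of one group and in neither of the other were set beside the 8822 listed in all 4 starved files. Both starved Thiamet-G files and neither control file listed 11 transcripts, with at most 16.6 RPKM. Both starved control files and neither Thiamet-G file listed 313 transcripts, at a median of 1.80 RPKM and at most 41.6 RPKM. The control libraries held 5846130 and 1505367 reads and the Thiamet-G libraries 869064 and 958140, and libraries of file-name number 1 list almost no transcript with fewer than 5 reads. The part of depth and of this listing in the 313 was not tested.

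Short coding regions held more of the footprints in the Thiamet-G library of each pair. Coding regions of at most 600 nt took 21.1% and 27.1% of the reads of starved control replicates 1 and 2, and 27.8% and 25.7% of those of starved Thiamet-G replicates 1 and 2. The groups overlapped, at 24.1% ± 4.22 (SD, n = 2) for control and 26.8% ± 1.49 (SD, n = 2) for Thiamet-G. Within the pairs the share was 4.58 and 0.73 percentage points higher under Thiamet-G. An exact permutation test of 2 against 2 libraries cannot give a two-sided p below 0.33, so none was run. The Wilson 95% intervals of the shares extended at most 0.098 points to either side and cover counting error only. Control replicate 1 decided the difference of the means, which was 2.66 points with all libraries and -0.32 points without it. As a share of summed RPKM the groups did not overlap, at 48.3% and 54.2% in control replicates 1 and 2 and 55.3% and 54.6% in Thiamet-G replicates 1 and 2.

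Fed cells went the other way. Their share on coding regions of at most 600 nt was 43.1% and 34.5% in control replicates 1 and 2, and 39.8% and 33.8% in Thiamet-G replicates 1 and 2. The fed means were 38.8% ± 6.08 (SD, n = 2) and 36.8% ± 4.23 (SD, n = 2), and the pair differences were -3.33 and -0.72 points. These groups overlapped as well. All 4 starved libraries lay below all 4 fed libraries in this share.

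Coding regions of over 1200 and up to 3000 nt took 39.3% of the reads of starved control replicate 1, and 31.9%, 31.8% and 32.0% of those of control replicate 2 and Thiamet-G replicates 1 and 2. Control replicate 1 stood apart from the other 3 starved libraries, and the pairs differed by -7.35 and -0.13 points. By file-name number 1 and 2, the starved knockout libraries stood at 38.2% and 29.0% and the fed knockout libraries at 34.8% and 32.0%. Number 1 was the lower one in fed control (21.6% and 27.6%) and fed Thiamet-G cells (21.6% and 26.1%). The file-name number thus had no common direction in this class. In shares of reads, regions of over 600 and up to 1200 nt differed by 0.48 and -0.97 points in the pairs. Regions over 3000 nt differed by -0.30 and 0.31 points. Neither class had a common sign on that scale. In shares of summed RPKM, regions of over 600 and up to 1200 nt differed by -1.24 and -0.93 points. The groups did not overlap there, with Thiamet-G lower. Among single transcripts listed in all 4 files, 62.1% of 1175 with a coding length of at most 600 nt had a log2 difference above 0, against 49.4% of all 8793. Their median log2 ratios were 0.35 in the first pair and 0.08 in the second.

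**Figure D4:**
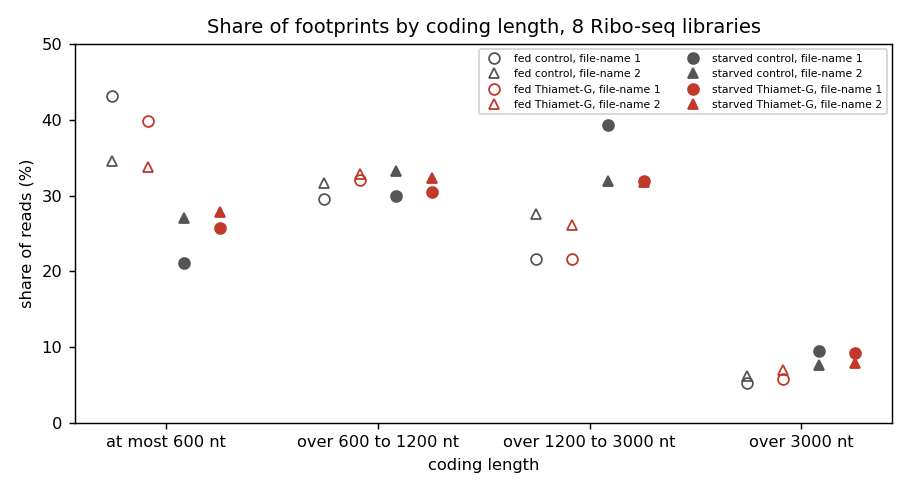
Recovered reads in 4 classes of coding length as a percentage of all reads of the library, for 8 Ribo-seq libraries. Control is in grey and Thiamet-G in red, fed as open and starved as filled symbols, with circles for file-name number 1 and triangles for number 2. Starved control of number 1 stands apart at 21.1% in the shortest class and 39.3% in the class up to 3000 nt.

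Sets of 200 transcripts chosen in libraries outside the starved comparison were then read in it. Each set holds the transcripts with the largest smaller log2 ratio of 2 pairs in the other libraries, among transcripts of at least 10 RPKM there, so their direction in the starved comparison was not fixed by the choice. The 200 that were highest in fed Ogt knockout against fed control cells had a median log2 difference of -0.55 under Thiamet-G in starved cells, with 41 above 0 and 159 below. The 200 that were lowest in the fed knockout had a median of 0.44, with 148 above 0 and 52 below. Over the 7039 transcripts considered, the median was -0.05 and 47.6% were above 0. By limma 0 of either set was called, and 9 and 11 had an unadjusted p under 0.05.

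The first pair carried these medians. In the first pair the knockout-higher set had a median log2 ratio of -1.06 with 21 of 200 above 0, and the knockout-lower set 0.85 with 175 of 200 above 0. In the second pair the medians were 0.01 with 102 above 0 and 0.09 with 109 above 0. The sets also differed in coding length, which was at most 600 nt for 5 of the knockout-higher and 100 of the knockout-lower transcripts. The part of coding length, and of control replicate 1 on its own, in these medians was not tested. No library is shared between the choice of these sets and the starved comparison, but file-name numbers are.

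Transcripts chosen for their starvation response in knockout cells gave smaller medians in the same order. The 200 highest in starved against fed knockout cells had a median log2 difference of -0.28 under Thiamet-G with 69 above 0, and the 200 lowest had 0.33 with 136 above 0, against -0.06 and 46.7% above 0 for the 7068 considered. Their medians were -0.54 and 0.62 in the first pair and 0.02 and 0.27 in the second. Both pairs of the lower starvation set thus had a median above 0. Sets chosen for the Thiamet-G effect in fed cells had medians of -0.06 (96 above 0) for the higher and -0.14 (88 above 0) for the lower, against -0.03 and 48.5% above 0 for the 6909 considered. Sets chosen for starvation on eIF3-associated ribosomes of control cells had medians of -0.18 (77 above 0) for the higher and 0.06 (107 above 0) for the lower, against -0.10 and 43.8% above 0 for the 1732 considered. In the first and second pair the higher eIF3-80S set had medians of -0.33 and 0.08, against -0.23 and 0.09 for the 1732. The lower eIF3-80S set had -0.04 and 0.09. With quantile normalization the median of the lower eIF3-80S set was 0.0011. By limma 0 transcripts of any of these sets was called.

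**Figure D5:**
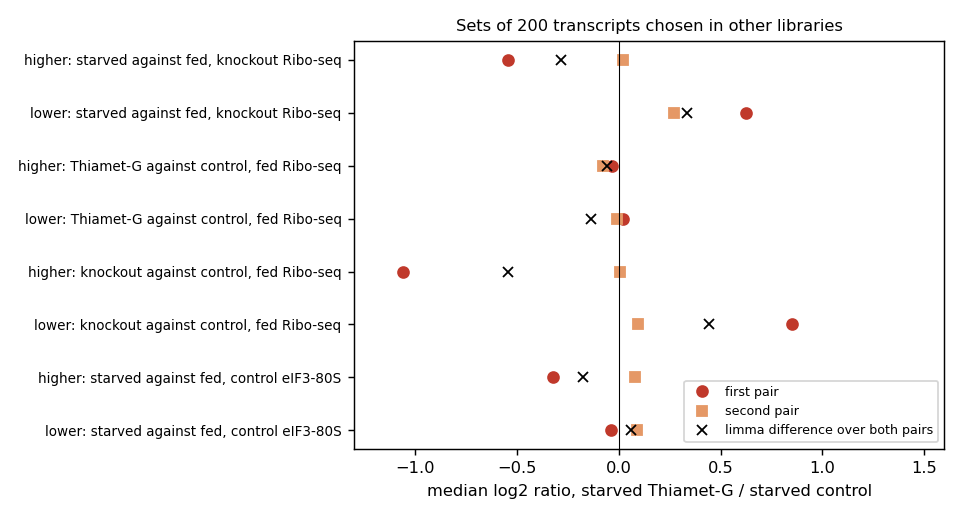
Median log2 ratio of starved Thiamet-G to starved control for 8 sets of 200 transcripts chosen in other libraries, in the first pair (red circles), in the second pair (orange squares) and in the limma fit (crosses). The first pair reaches -1.06 and 0.85 for the sets chosen in fed knockout against fed control cells, where the second pair stays at 0.01 and 0.09.

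The effect of Thiamet-G was not shown to differ between starved and fed cells. Limma called 0 of 10936 transcripts for the fed comparison (0%), while 51 or 0.466% had an unadjusted p under 0.05, as did 164 with the replicate block. For the difference between the starved and the fed effect it called 0 (0%), while 145 or 1.33% had an unadjusted p under 0.05, as did 305 with the block. Leaving out single libraries moved that 145 to between 46 (without fed Thiamet-G replicate 2) and 578 (without fed Thiamet-G replicate 1). Beyond these 2, the count passed 1.5 times its value or its inverse without fed control replicate 1 (235), fed control replicate 2 (79), starved control replicate 1 (319) and starved Thiamet-G replicate 2 (500). Limma-voom called 0 of 9914 for the fed comparison (12 with an unadjusted p under 0.05) and 0 for the difference of effects (60 with one). Across 7015 transcripts the starved and fed differences correlated at 0.052 and 51.4% had one sign. In the most read class of 207 transcripts they correlated at -0.29 with 44.9% of one sign.

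Ribosomes associated with eIF3 were measured in 1 starved Thiamet-G and 2 starved control libraries, so that comparison has no test. These libraries were shallow. The median listed transcript had 11 recovered reads in the Thiamet-G library and 9 and 12 in control replicates 1 and 2. All recovered reads of control replicate 1 first came out even, so its reads and its total were halved. Control replicate 1 listed 1919 transcripts. The part of counting error in the ratios and correlation below was not tested. Among 1803 tested transcripts listed in all 3 files, 33 were at least 2-fold higher and 41 at least 2-fold lower than in both controls. The median absolute log2 ratio of the Thiamet-G library was 0.50 to control replicate 1 and 0.38 to control replicate 2, against 0.47 between the controls. The mean eIF3-80S ratio and the Ribo-seq difference correlated at -0.04 across these transcripts, and 44.6% had one sign. The 33 had a median Ribo-seq log2 difference of 0.12 with 17 above 0, and the 41 had -0.15 with 18 above 0, against -0.10 over all 1803. Of the transcripts 2-fold higher in both Ribo-seq pairs, 7 were listed in all 3 eIF3-80S files, of which 1 lay above both eIF3-80S controls and 3 below both. Over all 1803 transcripts 573 lay above both and 587 below both. Of those 2-fold lower in both Ribo-seq pairs, 23 were listed, of which 7 lay above and 9 below.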

How the data were processed

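Per the labels' protocols, ribosomes were separated on sucrose gradients and digested with RNase I, and size-selected fragments were sequenced. The authors deposited 1 file per library with transcript identifiers and RPKM. Per the submitters' processing notes, cutadapt and STAR were used with the GRCm38 build. Which counter, annotation release and filters were used is not given in the sources used here.

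Whole reads, library totals and coding lengths were recovered from RPKM steps for 12249 of 15354 transcripts (relative tolerance 1e-09), covering 97.3% to 99.9% of reads of the 4 starved libraries. The 3105 others were listed in 1 or 2 files. Of the lengths 99.89% were multiples of 3, but the recovery favored multiples of 3, so this share is no independent check of the lengths. RPKM was rescaled by median ratios and log2(RPKM + 1) went into lmFit and eBayes with a trend (limma 3.58.1, R 4.3.3) over 12 Ribo-seq libraries in 6 groups, for transcripts averaging at least 1 RPKM, unlisted values counting as 0. The pseudocount understates changes of low transcripts. Limma-voom took transcripts with at least 10 reads on average. The recovery and both fits were tested on simulated data. The simulated reads carried no effect of the file-name number and no cut on low reads. They therefore do not show how the fits perform on these libraries.

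Groups came from titles. Deviations from group means correlated at 0.188 to 0.453 between libraries of like file-name number in 15 of 15 pairs of groups over tested transcripts, and at 0.080 to 0.445 over transcripts listed in all 12 files. Those of starved control and starved Thiamet-G correlated at 0.394 and 0.304. Unlisted values follow the number, since libraries of number 1 list almost no transcript under 5 reads. No libraries were duplicates: the mean chi-square per transcript was 15.1 to 112 among the starved libraries.

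Members, sets, gene lists and tests were chosen with earlier results of these data known. The 25 gene lists, the targeted genes and cell markers were not run, as no identifier could be named. Named transcripts had at least 10 RPKM on average, were listed in all 4 starved files and had the largest smaller ratio of one sign over the 2 pairs, 2 per direction.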

Additional observations from a re-analysis of the deposited data

Results flagged for a closer look

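The share of footprints on coding regions of at most 600 nt moved in opposite directions with Thiamet-G in starved and in fed cells. In starved cells it was 2.66 percentage points higher under Thiamet-G on average and higher in both pairs (4.58 and 0.73 points). Starved control replicate 1 decided that mean difference, which was -0.32 points without it. In fed cells the difference was -2.03 points on average, and both pairs were lower (-3.33 and -0.72 points). The difference between the starved and the fed effect was not tested. In shares of reads the Thiamet-G and control libraries overlapped within each state. In shares of summed RPKM the starved groups did not overlap, at 48.3% and 54.2% in control and 55.3% and 54.6% in Thiamet-G replicates 1 and 2.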

How the results depend on the processing

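No transcript was called for the starved comparison under 17 of the 18 alternatives run. The exception was the 4 starved libraries alone with the replicate block by file-name number, which called 19 transcripts with 1 residual degree of freedom. The smallest adjusted p ranged from 2.84e-07 in that fit to 1. Leaving out 1 starved library gave 0 to 0 calls. The file-name block changed no other call, and a block by title number also gave 0 calls, with 377 transcripts at an unadjusted p under 0.05 against 316 without a block. The difference of effects stayed at 0 calls under 11 alternatives, 8 of which left out a library (0 to 0), and the fed comparison at 0 under 3. The 4 named transcripts were chosen for ratios of one sign in both pairs of these libraries, so their kept sign is no sign of stability, and their limma adjusted p ranged from 0.0738 to 1. Leaving out 1 starved library gave log2 differences of 1.74 (without control replicate 2) to 4.46 (without control replicate 1) for ENSMUST00000168185 and 0.78 (without control replicate 1) to 4.14 (without control replicate 2) for ENSMUST00000090511. It gave -4.36 (without Thiamet-G replicate 2) to -1.81 (without Thiamet-G replicate 1) for ENSMUST00000048678 and -3.85 to -1.17 for ENSMUST00000033715 without the same libraries. The difference in the share of short coding regions was 3.68 points by summed RPKM and ranged from -0.32 to 5.64 points when a starved library was left out. It was -0.32 points without starved control replicate 1 and 5.64 without control replicate 2. In eIF3-80S-seq, 74 transcripts differed 2-fold from both controls, 114 did so with RPKM as deposited, and 179 to 370 did so when 1 control was left out and the other alone was compared. With pairs formed by title number the 2 log2 ratios correlated at -0.32 across transcripts. Medians of the sets of 200 kept their sign with quantile normalization and with RPKM as deposited, but that of the lower eIF3-80S set went from 0.06 to 0.0011 and 0.09, and that of the higher fed Thiamet-G set from -0.06 to -0.03 with RPKM as deposited. These eIF3-80S alternatives, those of the correlation and limma-voom in fed cells were chosen after seeing the data. Gene lists were not run under any setting. The median listed transcript had 27 and 44 reads in the Thiamet-G libraries and 193 and 46 in the control libraries. The counting SD of the pairs' log2 ratios (median 0.20 and 0.27) was below the SD of the ratios (0.90 and 1.22).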
